A study of Saccharomyces cerevisiae with 96 samples.

Results

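The strain difference late in a transcription shut-off was described on 26 of the 96 arrays of the series. Their titles give 35, 40, 45, 50 or 60 min of treatment with thiolutin, an inhibitor of transcription that was used at 10 μg/ml on cultures in mid-log phase. Both strains of Saccharomyces cerevisiae are congenic and MATα, with SUC2 and CUP1 and with the alleles mal, mel, gal2, flo1 and flo8-1. The Nmd+ strain S288C has a working nonsense-mediated mRNA decay (NMD) pathway, and the Nmd- strain YRZ1 carries the null allele upf1Δ::KanMX4 in addition, so thiolutin treatment was shared by both sides of the comparison. Each strain was followed in 3 independent time courses. Total RNA was primed with oligo(dT), and each sample was hybridized to 1 Affymetrix YG-S98 array. Because the gene deletion is represented by 1 strain, a difference between S288C and YRZ1 at any other locus cannot be told apart from an effect of the deletion.

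The strain, the time and the course were taken from the titles, and 4 of the 30 arrays of this window were left out because their strain markers go against the title. In the 12 Nmd- arrays that were used, the log2 value of UPF1 was 1.93 at the lowest, 2.38 at the median and 2.88 at the highest. In the 14 Nmd+ arrays it was 5.42, 6.14 and 6.45. The groups did not overlap, but the arrays were kept by these values. The KanMX4 cassette had log2 values of 11.87, 12.11 and 12.35 in Nmd- and of 3.52, 4.61 and 5.93 in Nmd+. The arrays titled Nmd- replicate 1 at 40, 45 and 50 min gave UPF1 values of 6.20, 6.04 and 6.15 and KanMX4 values of 5.10, 4.99 and 5.38, which lie within the range of Nmd+. The array titled Nmd+ replicate 3 at 60 min gave 5.43 for UPF1 and 11.28 for KanMX4, so it carries a signal of both. The Nmd- courses therefore hold 2, 5 and 5 arrays and the Nmd+ courses 5, 5 and 4.

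**Figure D1:**
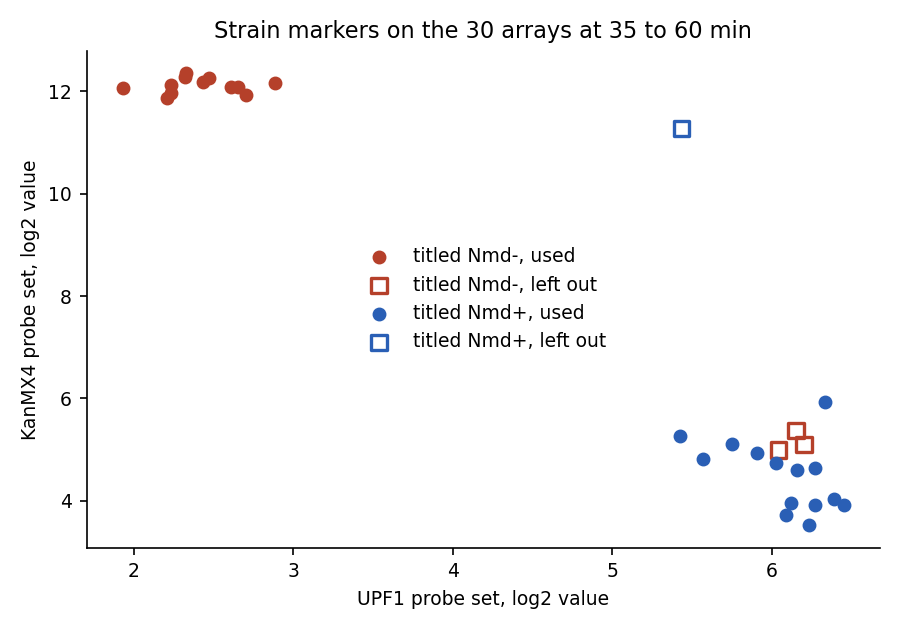
Log2 value of the UPF1 probe set (x axis) against that of the KanMX4 probe set (y axis) on each of the 30 arrays at 35 to 60 min. Filled circles are the 26 arrays that were used and open squares the 4 left out. The 3 open squares titled Nmd- lie among the Nmd+ arrays, and the 1 titled Nmd+ lies high on both axes.

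NMD is a translation-dependent pathway that degrades mRNAs on which ribosomes terminate too early. Upf1, an RNA helicase, acts in it with Upf2 and Upf3 and with the termination factors Sup35 and Sup45. In budding yeast the pathway degrades mRNAs with premature stop codons as well as ordinary mRNAs in which a ribosome meets a stop codon ahead of, or out of frame with, the coding region. Upstream open reading frames (uORFs) and start codons that ribosomes scan past are 2 such features. Thiolutin blocks most new RNA synthesis, but the study considered the block incomplete. The level at 35 to 60 min can therefore reflect residual synthesis as well as decay, which cannot be told apart here, and it was measured relative to the average RNA of each array.

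The sequences around start codons are shown for 9 genes described below, because the initiation context bears on whether a ribosome uses an upstream start or passes a coding start. Each shows 6 bases before the start codon, the start codon in capitals and 3 bases after it, as DNA, copied from the study's supplementary listing and not checked against a genome here. The first 7 are starts of uORFs, and the last 3 are coding starts.
INO4 uORF: attccaATGcca
EST2 uORF: caatgaATGaca
FLR1 uORF: atccttATGccg
ASA1 uORF: ggtgtgATGtgc
ARG81 uORF: gatttgATGctt
FZF1 uORF: atgaaaATGaca
PET18 uORF: acgaatATGaac
INO4 coding start: gcaataATGacg
NMD4 coding start: aggttaATGaca
CPA1 coding start: tttcaaATGtcc
The third base before the start codon in yeast is most often A at efficiently used starts. It is C, T, C, G and T in the first 5 uORFs, whose genes were called higher. It is A in those of FZF1 and PET18, whose genes were not called. It is C in the uORF of PDR8, which is not printed here and whose gene was not called either. It is A in the coding start of INO4, T in that of NMD4 and C in that of CPA1. Over the 135 uORFs that the study lists for its direct targets, 31.9% have A there. Among the 22 of them whose gene was called higher at 35 to 60 min, 5 have A (22.7%), 4 have C, 4 have G and 9 have T. None of these 5 is among the starts printed above, so the split between the printed uORFs does not hold for the full list. FZF1 and PET18, not called, differed by 1.05 and 1.15 on the log2 scale, near the 1.18 of ARG81, which was called.

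For each probe set, time and course were fitted additively to give 1 time-adjusted log2 value per course, and the 3 Nmd- and 3 Nmd+ course values were compared by limma over 9275 probe sets. A probe set was called when its Benjamini-Hochberg adjusted p was under 0.05 and its difference at least 1.5-fold. In Nmd-, 132 probe sets were called higher (1.42% of those tested) and 8 were called lower (0.0863%). The course values of all 140 did not overlap between the strains, but this held also for 9.08% of all probe sets on the higher side and 6.92% on the lower side. The called increases ran from 1.92-fold to 202-fold, the latter for the strain marker KanMX4, with a median of 2.77-fold. Of the 132, 124 were at least 2-fold and 12 at least 4-fold. Over all 9275 probe sets the median log2 difference was -0.07, and 40.0% lay above 0.

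The number of calls rests on few courses. Without Nmd- replicate 3 it fell to 1 higher and 4 lower, and without Nmd+ replicate 2 to 2 higher and 4 lower. Without each of the others it was 34 to 75 higher and 7 to 10 lower, namely 41 without Nmd- replicate 1, 75 without Nmd- replicate 2, 64 without Nmd+ replicate 1 and 34 without Nmd+ replicate 3. KanMX4, UPF1 and 3 unnamed probe sets kept their call in each of these fits. The first 2 are the markers by which arrays were left out, so that choice favoured their calls. Of the 132 higher calls, 26 were kept in at least 4 of the 6 fits. Calls of named genes kept in none of the 6 include those of YIR043C, EBS1, INO4, PPT2, ARG81, SGF11, MAL11, RIO1, AAD14 and YOL162W. Those kept in 1 of the 6 include DAL7, FLR1, FRE2, NUT2, YIL165C and the called probe set of SDL1. All 132 estimates stayed above 0 in each of the 6 fits, with medians of 1.41 to 1.51. This direction was fixed in advance, because the course values of all 132 did not overlap. With all 30 arrays as labelled no probe set was called, with 964 at an unadjusted p under 0.05 against 858 (9.25%) with the 26 arrays.

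**Figure D2:**
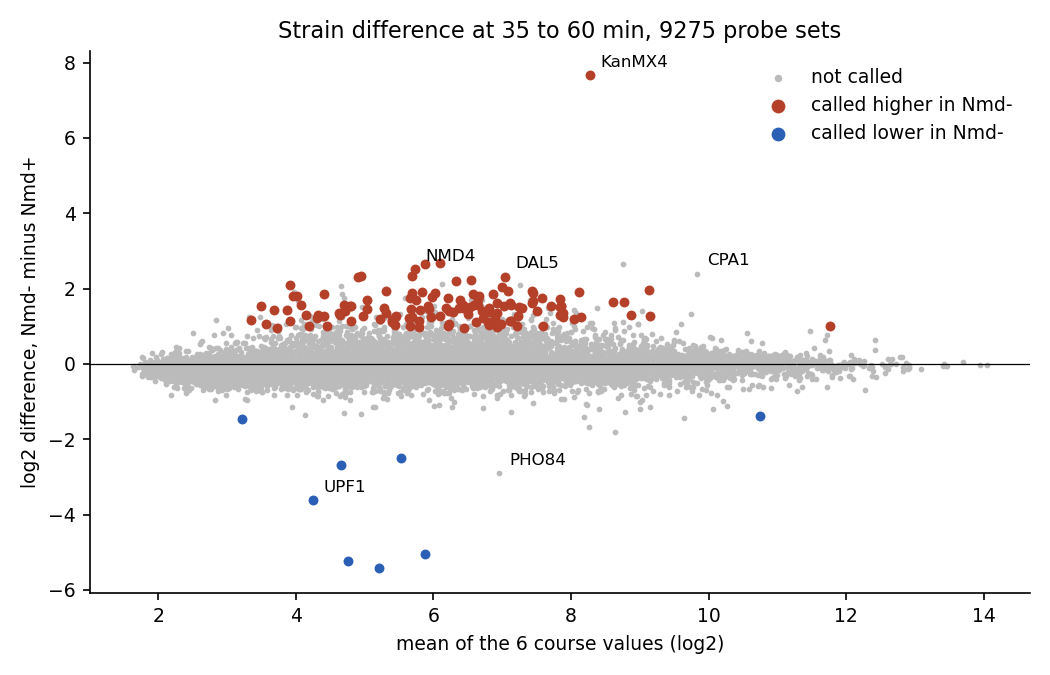
Log2 difference between the strains (y axis) against the mean of the 6 course values (x axis) for 9275 probe sets, with the 132 called higher in Nmd- in red and the 8 called lower in blue. The called increases lie at low and intermediate mean values, and PHO84 and CPA1 are large differences that were not called.

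The probe sets called higher gave moderate signals in Nmd+. Their median log2 value was 5.49 in Nmd+ (quartiles 4.51 and 6.33) against 5.92 over all probe sets, and 7.10 in Nmd-. They name 81 genes through 83 probe sets with 1 gene name (1.28% of such probe sets), and 33 further probe sets carry no gene name and 16 carry several. By RefSeq gene order, 16 of the 81 genes (19.8%) lie among the outermost 10 annotated genes at an end of a chromosome, against 3.59% of the 5656 genes that probe sets name. The median gene length was 1137 bases for the called genes and 1216.5 bases for all. A neighbouring gene was also called for 6 of the 81, in the pairs NUT2 and JIP5, GIS2 and RTC4, and ATG5 and PPT2. The call of NUT2 (adjusted p = 0.0249) was lost with the replicate block (0.0568). The genes of these pairs do not overlap in the annotation, but the strand that the probes read was not checked.

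Among genes of the pathway itself, NMD4 and EBS1 were higher and UPF1 was lower. NMD4, whose product associates with Upf1, showed the largest increase among called probe sets with 1 gene name. Its log2 values were 6.84, 7.24 and 6.87 in the Nmd- courses and 4.17, 4.74 and 4.51 in the Nmd+ courses. The difference was 5.70-fold (log2 2.51, standard error 0.22, limma adjusted p = 0.0058), and it was kept in 5 of the 6 fits that left out a course, the exception being the fit without Nmd- replicate 3 (adjusted p = 0.055). EBS1, which codes for a protein related to the telomerase subunit Est1, was 7.47, 8.03 and 7.56 in Nmd- against 6.61, 6.55 and 6.49 in Nmd+. It was called at 2.20-fold (adjusted p = 0.0457), and with the replicate number as a block its adjusted p was 0.0666. NMD2, the gene for Upf2, gave a log2 difference of 0.49 (adjusted p = 0.451), with values of 7.17, 6.82 and 6.80 in Nmd- and 6.28, 6.53 and 6.51 in Nmd+ that did not overlap. UPF3 (-0.13, adjusted p = 0.86, 95% interval -0.55 to 0.28), SUP35 (-0.03, adjusted p = 0.984) and SUP45 (0.50, adjusted p = 0.544) did not pass the test.

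General mRNA decay genes showed no call. Of the 20 probe sets for decapping and 5′ decay, 4 lay above 0 and 16 below, with a median of -0.19. Of the 34 for deadenylation and 3′ decay, 7 lay above 0 and 27 below, with a median of -0.16. Several of the 34 are for 1 gene, CDC39, and all of those lay below 0. Over all 9275 probe sets, 5566 lay below 0. The 5′ exonuclease gene XRN1 differed by -0.09 (standard error 0.32). LRP1, which codes for a cofactor of the nuclear exosome and which is in neither list, was called at 2.40-fold (adjusted p = 0.0427), and it was picked out after its value was seen. With the replicate block its adjusted p was 0.0908.

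The telomere genes that rose were those of the telomerase complex and of the proteins that cap chromosome ends. In the list of telomere genes, 5 of 25 probe sets, for 4 genes, were called higher (20.0%, against 1.42% of all) and none was called lower. STN1, coding for a subunit of the complex that caps telomeres, was 6.49, 6.41 and 6.84 in Nmd- against 4.70, 4.69 and 5.01 in Nmd+, and was 3.43-fold higher (adjusted p = 0.012). TEN1, which codes for its partner in that complex, was 2.21-fold higher (adjusted p = 0.0226), with 4.41, 4.45 and 4.60 against 3.40, 3.40 and 3.23. EST2, the gene for the reverse transcriptase subunit of telomerase, was 4.54, 4.24 and 4.40 in Nmd- and 3.21, 2.86 and 2.85 in Nmd+, a 2.68-fold increase (adjusted p = 0.0175). Both probe sets of EST3, which codes for another telomerase subunit, were called (3.22-fold and 3.16-fold, adjusted p = 0.0119 and 0.0136). The course values of these genes did not overlap between the strains, which held for every called probe set.

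The remaining telomere genes did not pass the test. EST1, for a further telomerase subunit, differed by 0.67 (adjusted p = 0.131), with 4.54, 4.64 and 4.61 against 3.86, 3.99 and 3.91. TEL1, the checkpoint kinase gene, differed by 0.79 (adjusted p = 0.143). CDC13, coding for the remaining subunit of the capping complex, lay on the other side of 0 (-0.43, adjusted p = 0.657), as did the telomere-binding factor genes RAP1 (-0.53) and RIF1 (-0.54). The median of the list was -0.12, and 8 of its 25 probe sets are for 1 gene, MLP1, of the nuclear pore. None of 32 probe sets for silencing genes was called, and their median was -0.05.

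**Figure D3:**
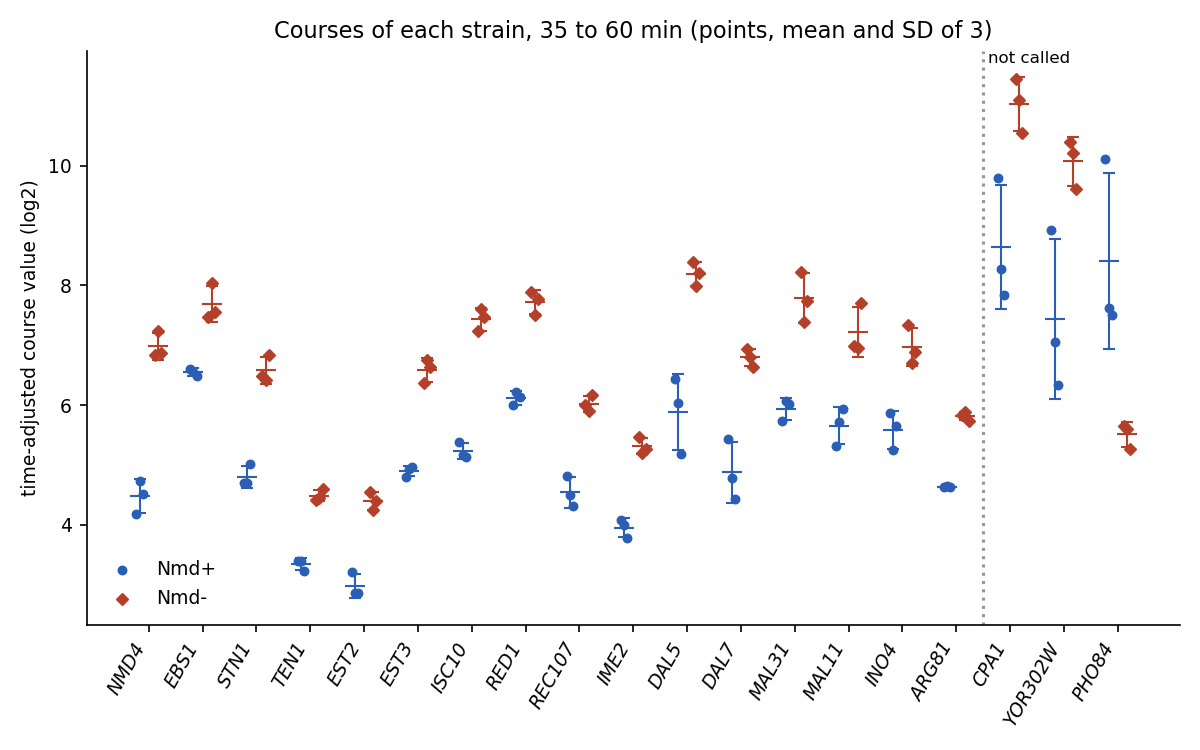
Time-adjusted log2 value of each course at 35 to 60 min for 19 genes, with Nmd+ in blue and Nmd- in red and the mean and SD of 3 courses as bars. Values are comparable within a gene only. In the 16 called genes left of the dotted line the courses of the strains do not overlap, as in every called probe set. The 3 genes right of it show a wide spread among the Nmd+ courses.

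Genes that act in meiosis and spore formation, which vegetative cells do not need, were called in 6 cases. Of 65 probe sets in this list, 7 were called higher (10.8%, against 1.42% of all) and none lower, and the median of the list was 0.11. ISC10, required for spore formation, was 7.23, 7.60 and 7.47 in Nmd- and 5.39, 5.16 and 5.14 in Nmd+, which is 4.61-fold higher (adjusted p = 0.0058). RED1, coding for a component of meiotic chromosome axes, was 3.04-fold higher (adjusted p = 0.0128), with 7.89, 7.51 and 7.78 against 6.00, 6.23 and 6.13. Both probe sets of REC107, which is needed for meiotic DNA breaks, were called (2.91-fold and 2.79-fold). The kinase gene IME2, an inducer of meiosis, was 2.57-fold higher (adjusted p = 0.0173), and SPR6 and SPS4, named for sporulation, were 2.86-fold and 2.95-fold higher. For SPS4 the adjusted p was 0.0376 and, with the replicate block, 0.0745. Of the 65 estimates, 41 lay above 0.

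Of the genes for nitrogen catabolism, 2 were called higher. DAL5, the allantoate permease gene, was 8.39, 7.99 and 8.21 in Nmd- and 6.44, 6.03 and 5.18 in Nmd+, 4.97-fold higher (adjusted p = 0.0208). Its other 2 probe sets were not called and gave differences of 0.82 and 0.89 with standard errors of 0.53 and 0.61. DAL7, for a malate synthase of allantoin degradation, was 3.78-fold higher (adjusted p = 0.0218), with 6.94, 6.81 and 6.64 against 5.43, 4.78 and 4.43. In the list of nitrogen catabolite genes these were the only 2 calls among 40 probe sets (5.0%, against 1.42% of all), and the median was -0.04. DAL2, of the same pathway as DAL7, differed by 1.25 (adjusted p = 0.0618, and 0.0363 with the replicate block, where it was called), while DAL1 (-0.15), DAL3 (0.09) and DAL4 (-0.04) lay near 0.

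The maltose permease genes MAL31 and MAL11 were 3.60-fold and 2.94-fold higher (adjusted p = 0.018 and 0.0422). MAL31 was 8.22, 7.39 and 7.74 in Nmd- and 5.73, 6.07 and 6.01 in Nmd+. The regulators at these loci, MAL33 and MAL13, differed by 0.26 and -0.11. Maltose permease genes are alike in sequence, and whether the probes read other copies was not tested. Other lists held 1 or 2 calls each, while 1.42% of all probe sets were called higher. FRE2, a ferric reductase gene, was 2.71-fold higher, the only call among 30 iron regulon probe sets, of which 23 lay below 0 (median -0.17). FLR1, for a multidrug transporter, was 3.35-fold higher, the only call among 47 multidrug resistance probe sets, of which 32 lay below 0 (median -0.20). TIR4, for a cell wall mannoprotein, was 3.27-fold higher, the only call among 7 anaerobic mannoprotein probe sets (median 0.06). THI21 and THI22, of thiamine synthesis, were 2.80-fold and 2.66-fold higher, the 2 calls among 47 thiamine and sulfur probe sets (median 0.14). RIO1, a kinase gene of ribosome biogenesis, was 2.56-fold higher (adjusted p = 0.0375), the only call among 121 probe sets (0.826%, below the share of all probe sets). AAD14, of the aryl-alcohol dehydrogenase family, was called at 2.08-fold, and its adjusted p went from 0.0267 to 0.0553 with the replicate block. None of the 10 seripauperin probe sets was called, although all 10 lay above 0 with a median of 0.74. The members of that family are alike in sequence and may share signal.

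The other genes among the 10 largest called increases with 1 gene name were YIR043C, RRT13, YEL073C, JIP5, RTC4 and YER076C. JIP5, of ribosome biogenesis, had almost the same level in every Nmd- course, 9.06, 9.06 and 9.09, against 7.04, 7.32 and 7.12 in Nmd+ (3.76-fold, adjusted p = 0.0058). RRT13 was 4.08-fold, RTC4 3.68-fold and YER076C 3.64-fold higher. YEL073C was 3.89-fold higher on the probe set that was called, and its second probe set gave a log2 difference of 2.11 with a standard error of 0.41 (adjusted p = 0.0618, and 0.0347 with the replicate block). YIR043C was low in Nmd+, at 2.27, 3.04 and 3.30, against 4.44, 4.88 and 5.56 in Nmd-, and its call (4.25-fold, adjusted p = 0.0428) was kept in none of the 6 fits that left out a course. Of the 2 probe sets of YIR043C, only this 1 was called.

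Transcription factor and other genes that the study treated as direct targets of NMD were listed. SET7, which the study also found to be a direct target, is not in this list. Of the 15 probe sets listed, 4 were called higher (26.7%, against 1.42% of all probe sets). All 15 estimates lay above 0, with a median of 1.15, against 40.0% of all probe sets above 0. The study chose most of the listed genes on arrays of the same courses, so the direction is not independent evidence. PPR1 and SPT10 were known from earlier work and did not pass the study's selection on its arrays. INO4, the activator of phospholipid synthesis whose uORF start is shown above, was 7.33, 6.70 and 6.88 in Nmd- and 5.87, 5.24 and 5.65 in Nmd+ (2.61-fold, adjusted p = 0.0455). PPT2, for a mitochondrial phosphopantetheine transferase, was 2.25-fold higher (adjusted p = 0.0418), and EBS1 is described above. The other call is 1 of 2 probe sets of SDL1 (3.24-fold, adjusted p = 0.0374). SDL1 is the downstream part of a coding region that a stop codon splits in S288C, and its other probe set gave 1.26 (adjusted p = 0.0823).

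Among the listed direct targets that were not called, several had large differences. FZF1, a regulator of sulfite transport, was 6.21, 6.15 and 6.59 against 5.15, 5.24 and 5.41 (difference 1.05, adjusted p = 0.0527). NIT1, a nitrilase gene, differed by 1.26 (adjusted p = 0.0769, and 0.046 with the replicate block, where it was called). Its neighbour in the split nitrilase region, YIL165C, was called at 3.07-fold (adjusted p = 0.0235). YOL162W, of another split region, was called at 2.01-fold (adjusted p = 0.0464, and 0.0875 with the replicate block). ASF2, of silencing, differed by 1.18 (adjusted p = 0.157), PET18 by 1.15 (0.0897) and RDR1, a repressor of drug resistance genes, by 0.89 (0.358). The differences of PDR8 and PDR3, regulators of drug resistance, were 0.63 and 0.42 (0.248 and 0.525). PPR1, the activator of pyrimidine synthesis, differed by 0.09 and SPT10, a regulator of histone genes, by 0.16. The courses of the strains overlapped for PPR1, SPT10 and RDR1. SPT10 was at 2.53 to 3.00 in all courses, near the 2.38 to 2.50 of the deleted UPF1 in Nmd-, so a difference may not show there.

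CPA1 and the uORF ahead of it showed differences as large as NMD4 but spread widely. CPA1, which codes for a subunit of the arginine-specific carbamoyl phosphate synthetase and whose uORF encodes a peptide that responds to arginine, was 11.45, 11.10 and 10.54 in Nmd- and 9.80, 8.28 and 7.83 in Nmd+. YOR302W, the annotated uORF on the same mRNA, was 10.39, 10.22 and 9.62 against 8.92, 7.05 and 6.34. The log2 differences were 2.39 (adjusted p = 0.0823) and 2.64 (adjusted p = 0.117). Both were called with the replicate number as a block (adjusted p = 0.0336 and 0.0463) and without Nmd+ replicate 1 (0.0266 and 0.0255). ARG81, which codes for the regulator of arginine genes and whose uORF start is shown above, was 5.83, 5.88 and 5.74 in Nmd- and 4.64, 4.64 and 4.63 in Nmd+ (2.26-fold, adjusted p = 0.018). In the arginine list 1 of 11 probe sets was called (9.09%, against 1.42% of all), and the median was 0.61.

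Of the genes that the study treated as indirect targets, 4 of 14 probe sets were called higher (28.6%, against 1.42% of all), for ARG81, EST3 and SGF11. SGF11, coding for a subunit of the SAGA deubiquitylating module, was 1.96-fold higher (adjusted p = 0.0394, and 0.0671 with the replicate block). RRN10, of RNA polymerase I initiation, differed by 1.06 (0.0808), MED1, of Mediator, by 0.82 (0.104), MAF1, the repressor of RNA polymerase III, by 0.82 (0.191), SAS2, an acetyltransferase gene of silencing, by 0.84 (0.188) and YRR1, an activator of drug resistance genes, by 0.83 (0.182), the values in parentheses being adjusted p-values. URA3, the pyrimidine synthesis gene, differed by -0.15 (adjusted p = 0.856). The 4 probe sets of UGA3, the activator of GABA utilization genes, gave differences of -0.41, 0.02, 0.23 and 0.72, and none was called.

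The study's longer lists of genes with a uORF and of genes with a start codon that may be passed over were also higher on the whole. Of 128 probe sets in the uORF list, 22 were called (17.2%) and 121 lay above 0, with a median of 0.67. In the other list the numbers were 36 of 210 called (17.1%), 194 above 0 and a median of 0.68. Over all probe sets, 1.42% were called higher and 40.0% lay above 0. Both lists had been drawn from genes found higher in Nmd- on these courses. FLR1 and ASA1, the latter coding for a subunit of the ASTRA complex, are among the called genes of the uORF list, and ASA1 was 7.14, 7.17 and 6.95 in Nmd- against 5.36, 5.24 and 5.41 in Nmd+.

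**Figure D4:**
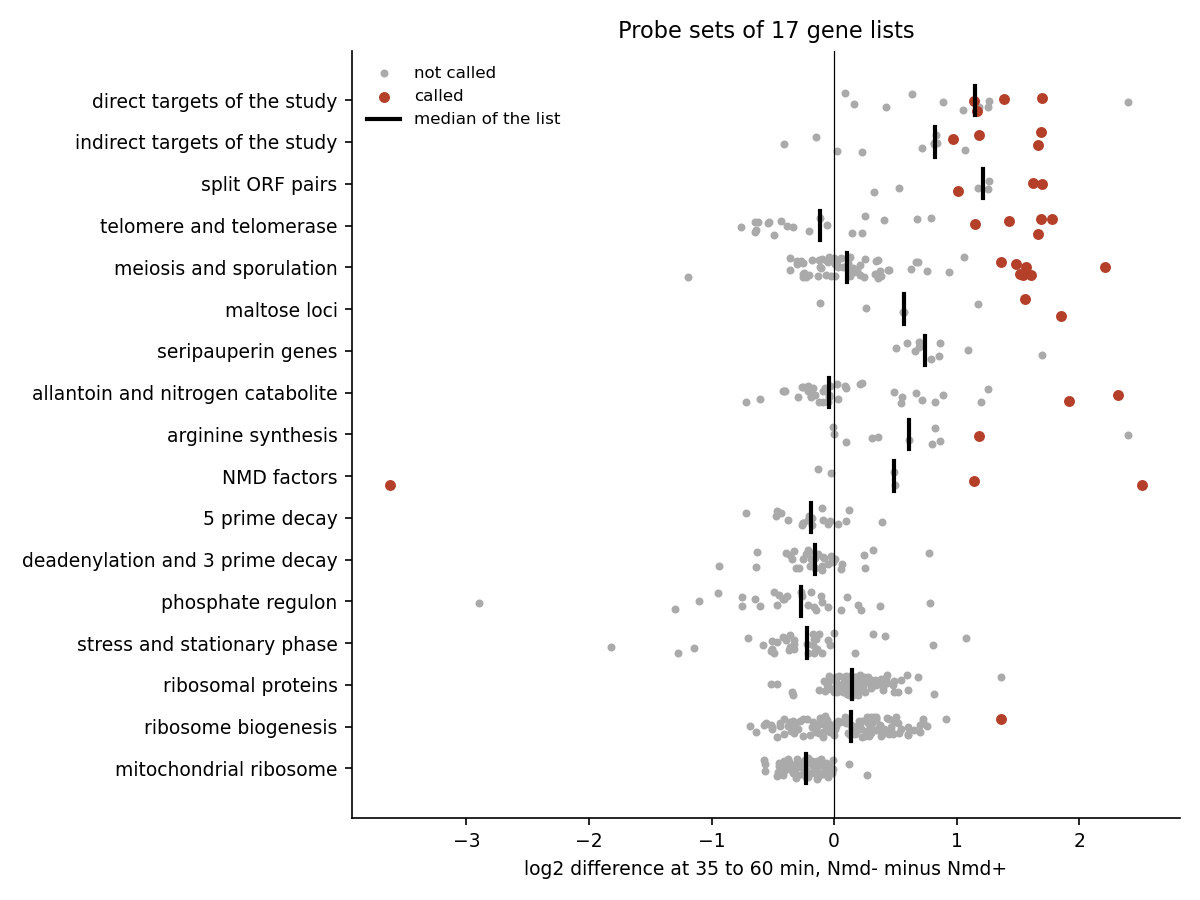
Log2 difference at 35 to 60 min for every probe set of 17 gene lists (x axis), with called probe sets in red and the median of each list as a black bar. The lists of the study's targets lie mostly to the right of 0, and in the telomere and meiosis lists a few called members stand away from a bulk around 0.

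Retrotransposon sequences made up a further group. There are 30 probe sets whose several gene names are all open reading frames of Ty4, a retrotransposon present in a few copies. Of these, 15 were called higher (50.0%, against 1.42% of all probe sets). With the replicate block 16 were called, of which 13 are shared with the 15. In this group 29 estimates lay above 0, with a median of 1.32 and a highest of 2.69. Relative to the mean of the 6 courses, the group's median was 0.47, 0.60 and 0.83 in the Nmd- courses and -0.87, -0.52 and -0.45 in the Nmd+ courses. The probe sets overlap in sequence and cannot be assigned to single copies, and whether the number of copies differs between the strains was not tested. The group was put together after its values were seen.

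On the lower side UPF1 was the only called probe set with 1 gene name (0.0154% of such probe sets). It was 2.50, 2.45 and 2.38 in Nmd- and 5.85, 6.08 and 6.27 in Nmd+, a log2 difference of -3.62 (standard error 0.18, adjusted p = 0.000189). Arrays were left out by the values of UPF1 and KanMX4, so the tests of these 2 probe sets are not independent of that choice. The other 7 probe sets called lower were 6 unnamed and 1 with several gene names. The unnamed 3953_at, 3952_at and 3954_at differed by -5.43, -5.23 and -5.05 on the log2 scale, further than UPF1. The first 2 were at 2.08 to 2.54 in every Nmd- course and at 7.22 to 8.09 in every Nmd+ course. The other unnamed calls were 3951_at, 3955_at and 9271_at, with differences of -2.68, -1.48 and -2.50. All but 9271_at carry consecutive numbers. No gene name is paired with any of these 6 in the annotation used. In the unnamed probe sets called higher, 5515_at and 3214_at showed the largest increases after KanMX4 (6.28-fold and 5.04-fold).

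Some phosphate genes were lower in Nmd- without passing the test. PHO84, the high-affinity phosphate transporter gene, was 5.66, 5.60 and 5.27 in Nmd- and 10.11, 7.62 and 7.50 in Nmd+. The courses did not overlap, and the difference of -2.90 had a standard error of 0.65 (adjusted p = 0.106). It was -2.05 and called without Nmd+ replicate 1 (adjusted p = 0.0256), the course with the highest value. SPL2, of the same regulon, was 4.38, 3.78 and 4.00 against 6.36, 4.82 and 4.88 (difference -1.30, adjusted p = 0.313). Of the 29 probe sets of the list, none was called, 23 lay below 0 and the median was -0.27. In limma, 3 of the 29 had an unadjusted p under 0.05, against 858 of all 9275 probe sets (9.25%), a similar share. Several of the 29 are for 1 gene, VIP1, and all of those lay below 0. Over all 9275 probe sets, 5566 lay below 0.

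Growth and stress genes differed more among courses of the same strain than between strains. For 106 ribosomal protein probe sets the median relative to the mean of all courses was -1.14, 0.97 and 0.44 in the Nmd- courses and -0.36, 0.42 and -0.21 in the Nmd+ courses. For 37 probe sets of stress and stationary phase genes it was 0.39, -0.61 and -0.09 in Nmd- and 0.01, -0.00 and 0.43 in Nmd+, so Nmd- replicate 1, the lowest course of the first list, was among the high ones of the second, and Nmd- replicate 2 the reverse. GRE1, a stress-induced gene of the second list, had 9.85, 5.33 and 8.04 in Nmd- and 9.94, 8.63 and 10.10 in Nmd+ (difference -1.82, standard error 1.04). Neither list held a call. The Nmd- replicate 1 value rests on 2 arrays, at 35 and 60 min.

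The strain difference was also taken at each of the 5 times of the window. Over the 132 probe sets called higher, its median was 1.496, 1.38, 1.45, 1.35 and 1.46 at 35, 40, 45, 50 and 60 min, while the median of all probe sets stayed between -0.10 and -0.04. All 132 lay above 0 at 4 of the times and 131 at 45 min, but they were chosen on the values of these same times, so their direction was nearly fixed. NMD4 was higher by 2.46, 2.80, 2.64, 2.38 and 2.53, and STN1 by 1.76, 1.67, 2.00, 1.74 and 1.97. EBS1 gave 1.58, 1.37, 1.28, 0.73 and 0.90. The courses behind each time differ, because arrays were left out.

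The same courses were also measured at 0 min and at 12 to 30 min. Of the 132, 108 were called higher at 0 min as well (81.8% of these, and 27.2% of the 397 called higher at 0 min, itself 4.28% of all probe sets, against 65 called lower, 0.701%). At 12 to 30 min, 101 were called (76.5%, and 49.8% of 203, itself 2.19% of all), 89 were called in all 3 windows and 12 at 35 to 60 min only. Estimates lay above 0 for 131 of the 132 at 0 min and for all 132 at 12 to 30 min. A call at 35 to 60 min only therefore does not by itself mark a difference that was absent earlier. The median difference of the 132 was 1.73 at 0 min, 1.63 at 12 to 30 min and 1.47 at 35 to 60 min. The comparison of windows uses the same cultures, so the calls are not independent. The 397 probe sets called at 0 min had a median of 1.36 there and of 0.87 at 35 to 60 min, when 386 still lay above 0. The 65 called lower at 0 min had medians of -1.34 and -0.14, and 38 lay below 0 late. These probe sets were chosen by their values at 0 min.

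Whether the strain difference changed was tested within courses. No probe set passed for the change from 0 min to 35 to 60 min by limma (lowest adjusted p = 0.0609, with 866 at an unadjusted p under 0.05, 9.34%), nor for the change from 12 to 30 min (lowest adjusted p = 0.436, with 693, 7.47%). The estimate was below 0 for 97 of the 132 from 0 min and for 93 from 12 to 30 min. The median change of the 132 was -0.27 and -0.21, against -0.04 and 0.01 over all probe sets. STN1 changed by -1.12 (standard error 0.26, adjusted p = 0.227) and YIR043C by -1.50 (0.28, adjusted p = 0.161) from 0 min. GIS2, a translational activator gene, was 0.70 at 0 min, 0.66 at 12 to 30 min and 1.63 at 35 to 60 min, a change of 0.93 from 0 min (standard error 0.36, adjusted p = 0.479). ESF1, of ribosome biogenesis, changed by 0.80 (adjusted p = 0.37) and NMD4 by 0.56 (adjusted p = 0.55). GIS2 and ESF1 were picked out after their values were seen.

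**Figure D5:**
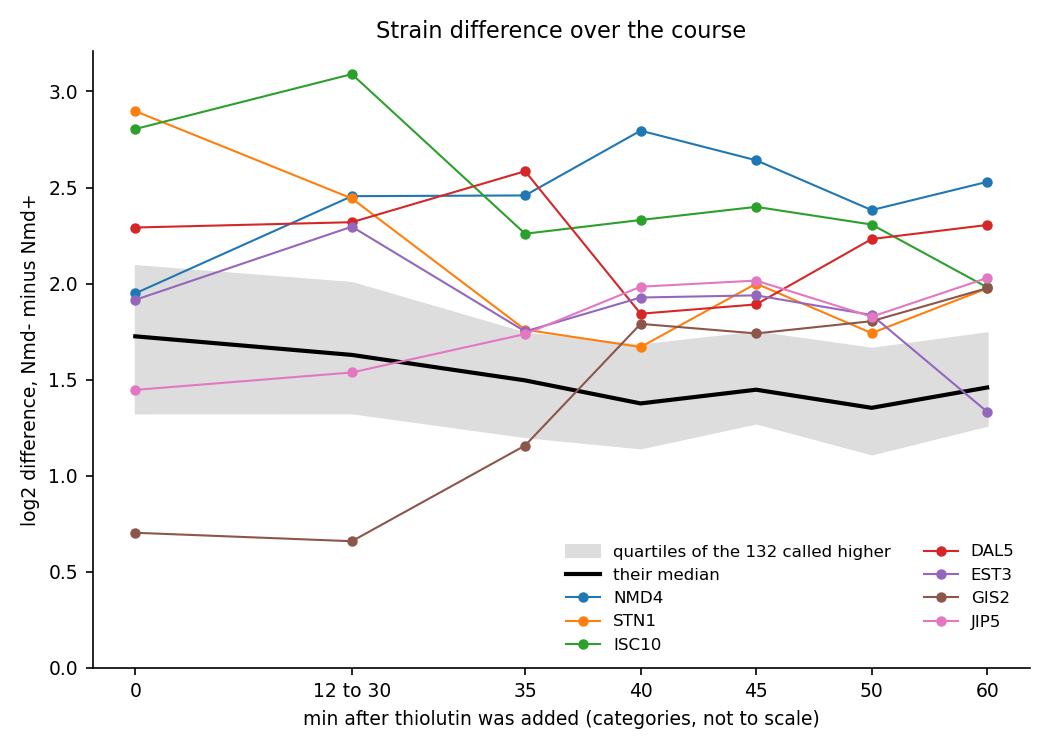
Log2 difference between the strains (y axis) at 0 min, over 12 to 30 min and at each time from 35 to 60 min (x axis, not to scale) for 7 genes, with the median (black line) and quartiles (grey) of the 132 probe sets called higher at 35 to 60 min. The median goes from 1.73 at 0 min to 1.46 at 60 min, and GIS2 and JIP5 are lower early than late.

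Over the 121 ribosome biogenesis probe sets the median strain difference was 0.07 at 0 min, 0.68 at 12 to 30 min and 0.14 at 35 to 60 min. At 12 to 30 min the course medians were -0.12, 0.95 and 0.25 in Nmd- and -0.52, 0.05 and -0.54 in Nmd+, so the strains overlapped. RNA polymerase subunits followed the same order, with -0.02, 0.42 and -0.03. The change was not tested for a list, and 1 probe set of the former list was called at 35 to 60 min.

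Technical groupings moved with the comparison in part. The arrays were scanned in 3 periods, and the periods held 1 Nmd- and 5 Nmd+, 10 and 8, and 1 and 1 arrays of the window. Within the first 2 periods, with time as a term, all 132 probe sets called higher were above 0, with medians of 1.49 and 1.41. In the first period only 35 min held both strains, so 1.49 comes from 1 array of each strain, both of replicate 1. All used arrays of Nmd+ replicate 1 were scanned in that period, so course and period cannot be told apart there. In the last period, where the 2 arrays are from different times, 131 were above 0, with a median of 1.46. The probe sets were chosen on these arrays, so their direction was nearly fixed. Probe sets are numbered in their names, and the strain difference varied with that number. The median was -0.26 for the 1148 probe sets numbered below 3300, 0.08 for the 437 numbered from 11000 and -0.05 for the rest, and 4 of the 132 lie in the first group and 4 in the second. The part of these groupings in the results was not tested beyond the values given.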

How the data were processed

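The arrays were background-adjusted, normalized and summarized per probe set by RMA by the authors, and the deposited values are used as log2 values, because on a natural log scale no 16-bit intensity could give more than 11.1 and the highest value is 14.2. This normalization makes arrays alike in level (medians 5.89 to 5.99), so differences are relative to the average RNA. The deposited array description files gave scan period and chip lot. Of 9335 probe sets, 60 controls were left out. Of the other 9275, 6504 carry 1 gene name in the platform annotation, all matched to RefSeq by gene ID, 328 carry several and 2443 none.

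Course values were compared with limma 3.58.1 (R 4.3.3; lmFit, eBayes), and summaries were made in Python 3.11.15. The members, gene lists and tests were chosen with earlier results of these data known. Named were the strain markers, of the called probe sets that carry 1 gene name and did not overlap, the 10 with the largest increase and 10 with the largest decrease (on the lower side UPF1 alone), up to 3 called members of each list, and all members of the NMD factor and study target lists; others are called picked out or stand beside a named gene. Same-numbered courses deviated together (correlations 0.17, 0.38 and 0.626), so the replicate numbers were taken to pair the courses; the comparison reported is without this block, and the blocked adjusted p is given where it changes a call. Nothing says how courses were matched. On simulated data of 9275 probe sets the late comparison recovered 2%, 20%, 60% and 78% of changes of 1.5, 2, 3 and 4-fold, with 4 false calls. The number of arrays limits the precision; with 3 courses a side an exact permutation test cannot go below p = 0.1. Decay rates were not fitted, and no genome was used.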

Additional observations from a re-analysis of the deposited data

Results flagged for a closer look

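The 4 arrays that were left out carry a signal against their title, and each was set against the mean of the used arrays of the same time over the 132 probe sets called higher. The array titled Nmd- replicate 1 at 40 min had a UPF1 value of 6.20, and the median over the 132 was -0.01 from Nmd+ and -1.41 from Nmd-. At 45 min UPF1 was 6.04 and the medians were -0.03 and -1.54. At 50 min UPF1 was 6.15 and the medians were -0.24 and -1.58. Of the 132, 123, 125 and 117 lay nearer to Nmd+ on these arrays. The array titled Nmd+ replicate 3 at 60 min had a KanMX4 value of 11.28. It lay 0.75 above Nmd+ and 0.74 below Nmd-, and 61 of the 132 were nearer to Nmd+. These 132 were chosen on the other arrays of the window. Where the RNA of the 4 arrays came from was not tested. No group of this comparison had 4 to 10 samples, so single samples far from their group were not looked for.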

How the results depend on the processing

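With all 30 arrays as labelled, 0 probe sets were called higher and 0 lower; with only the 3 Nmd- arrays put back, an alternative chosen after seeing the data, the counts were again 0 and 0 (lowest adjusted p = 0.21), and with only the Nmd+ array put back 126 and 8. Leaving out 1 course gave 1 to 75 higher and 4 to 10 lower. Centring on the 110 reference probe sets gave 22 and 5, with all differences shifted from a median of -0.07 to 0.03. Single arrays with the course as a random block gave 343 and 20, with 128 of the 132 among them, with the scan period as a term 408 and 38, and with the chip lot 376 and 22. The 35 min arrays alone gave 77 and 11. The replicate block gave 130 higher, 104 of them shared with the 132, and 8 lower; the calls it changed among the named genes are given beside them. At least 2-fold, a weighting by arrays, an intensity trend, a filter on dim probe sets, further quantile or median normalization, removal of the running median over probe set number, no time term and no 60 min arrays kept both counts within 1.5 times. No called value changed sign, but where 1 course was left out this was fixed by the lack of overlap.

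For the change from 0 min, all arrays as labelled gave 3 higher and 3 lower, centring on the reference probe sets 1 higher, and leaving out 1 course 0 to 57 higher, the 57 without Nmd- replicate 2 and 1 without Nmd+ replicate 2, and 0 to 0 lower. For the change from 12 to 30 min the counts were 0 throughout. Adjusted p alone, with no fold minimum, changed no count. Few arrays limit what the comparison can detect.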
